A study of Arabidopsis thaliana with 9 samples.

Results

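The genes described here encode proteins of the large (60S) subunit of the cytosolic ribosome of Arabidopsis thaliana, from L3 to L38 together with the stalk protein P0. The members were a list of 60 loci, and each locus was represented by the probe set annotated to it alone, the one with the highest mean signal where there were several. Of the 60 loci 37 had such a probe set, 1 each, among the 16863 probe sets listed, and the other 23 loci were not analysed here. All 37 were among the 10395 probe sets tested. They covered 18 proteins, of which 13 were measured through several gene copies (32 genes) and 5 through a single copy.

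A cytosolic ribosome is built from a small and a large subunit, and the large subunit holds the site where peptide bonds form, the tunnel through which the new chain leaves, and flexible stalks that contact elongation factors and transfer RNA. In Arabidopsis nearly every ribosomal protein is encoded by a small family of very similar genes, marked by the letters A, B, C and so on, and their transcripts are abundant wherever cells grow and divide. Mutants of several of these genes have pointed leaves and altered leaf polarity, among them piggyback1 (PGY1), the gene of L10aB. Protein names are given here from general knowledge of the family, since the gene tables used give loci and few symbols.

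Above-ground parts of seedlings of 3 genotypes were profiled on Affymetrix arrays, with 3 arrays per genotype, each from a biological replicate of 75 to 100 pooled seedlings. The wild type was Col-0, harvested at 7 days. The mutants cct-1 and gct-2, harvested at 9 days, carry lesions in the genes CCT and GCT, which encode the MED12 and MED13 proteins. Both belong to the kinase (CDK8) module of Mediator, a complex between transcription factors and RNA polymerase. Seedlings without cotyledons or leaf primordia were left out. Harvest was set by the size of the first leaf primordia, so a difference between a mutant and wild type cannot be told apart from that of 7 and 9 days of age, while the mutants had the same age. These were whole shoots, in which fewer cells of a type and less RNA per cell cannot be told apart.

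Signals are given as deposited, on the log2 scale, where a difference of 1 is a factor of 2. Array medians lay between 7.7 and 7.76, and arrays of a genotype correlated at r = 0.9739 to 0.9914 across tested probe sets, against 0.9372 to 0.9567 for a mutant and a wild-type array. No probe set was named here for the mutated genes, so the genotype labels could not be checked through them. Of 55 marker genes of shoot, root and seed tissues, 7 had a named probe set and 4 were tested. FAMA (FMA), a regulator of guard cell formation, was lower by -1.07 in cct-1 and -0.99 in gct-2 (limma, adjusted p = 0.0183 and 0.0217). It read 7.41 to 7.91 in wild type and 6.10 to 6.92 in the mutants, around the filter on dim signals (median 6.86). FAMA passed that filter only with its wild-type arrays, where it was high, so its calls follow in part from the filter. The other 3 tested mark dividing cells. The mitotic kinase gene AUR2 was lower by -0.45 and -0.48 (adjusted p = 0.0217 and 0.0137), and AUR1, of the same kinase family, differed by -0.32 in cct-1, not called (adjusted p = 0.0908), and was lower by -0.42 in gct-2 (adjusted p = 0.0334). PROLIFERA (PRL), the MCM7 subunit of the replicative helicase, differed by 0.10 in cct-1, not called (adjusted p = 0.624), and was lower by -0.41 in gct-2 (adjusted p = 0.0465). No marker of green leaf cells, epidermis, vasculature, shoot meristem or root had a named probe set, so the labelled tissue could not be checked through them.

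The large-subunit genes were bright and even. Their signals ran from 9.06 to 13.54, every member lay above the filter on dim signals on all 9 arrays, and the lowest value was 2.19 above that filter. High levels are usual for genes of the ribosome, so the label of the group was not contradicted. The standard deviation between arrays of a genotype had a median of 0.0682 over the members, from 0.0239 to 0.2249, against 0.1403 over all probe sets tested. From the lowest to the highest of the 9 arrays a member spanned 0.287 at the median, against 0.559 over all probe sets tested. The widest range, 0.698, was that of L13aC and the narrowest, 0.098, that of L22B. Of the members 5 lay within 1 log2 unit of the brightest probe set of every array, the closest by 0.24, and whether such bright signals are compressed was not tested.

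**Figure D1:**
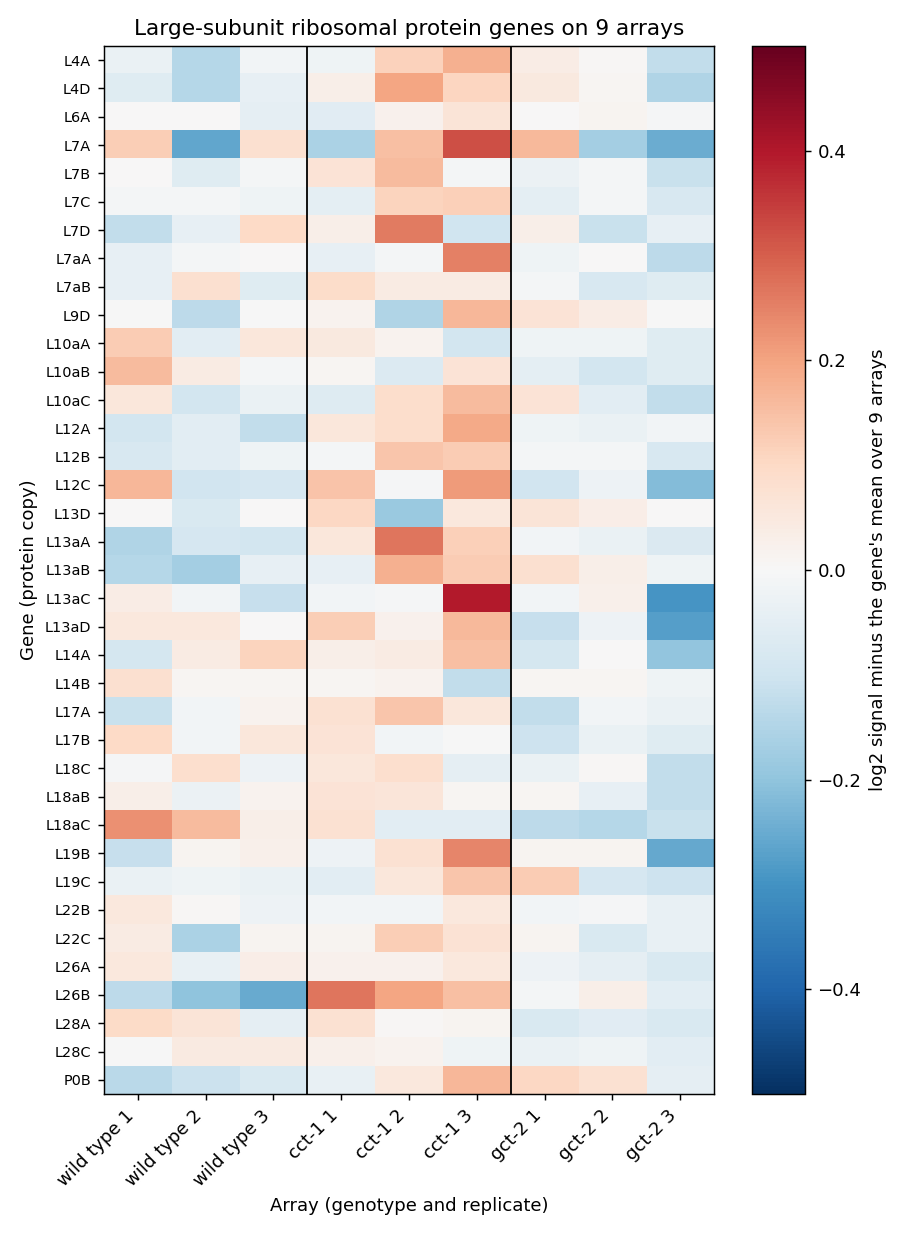
Signal of each of the 37 members on each of the 9 arrays, as the log2 difference from that gene's mean over all arrays, with genes in rows in the order of their protein numbers and arrays in columns by genotype (red above, blue below). Most cells are pale, L26B is blue in wild type and red in cct-1, and 2 of the 37 members lie above their own mean on gct-2 replicate 3.

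In cct-1 against wild type 1 member of 37 was called higher and none lower at an adjusted p under 0.05, while 12.9% of all probe sets tested were called, 6.3% higher and 6.63% lower. The gene called was L26B, whose product lines the exit of the peptide tunnel. The other members differed little. The 37 differences ran from -0.15 to 0.40 with a median of 0.07 (0.01 over all probe sets tested), and 29 of 37 were above 0 (52% of all probe sets tested). The 95% interval of the difference lay within a factor of 1.5 of no change for all 37 members and within 1.2 for 18 of them. At an unadjusted p under 0.05 there were 5 members, all higher, against 28.9% of all probe sets tested. All 3 cct-1 arrays lay above all 3 wild-type arrays for 7 members (16.8% of all probe sets tested) and below them for none (15.6%).

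Among the tunnel proteins, L26B (AT5G67510) read 10.69, 10.62 and 10.57 on the wild-type arrays, 11.09, 11.02 and 10.97 in cct-1, and 10.81, 10.85 and 10.77 in gct-2. The 3 genotypes did not overlap, with wild type lowest and cct-1 highest. From wild type at 10.63 ± 0.061 to cct-1 at 11.03 ± 0.058 (SD, n = 3 each) the rise was 0.40 (SE 0.07, 1.32-fold, limma adjusted p = 0.00753). In gct-2 the difference from wild type was 0.18 (95% interval 0.02 to 0.34, adjusted p = 0.116). Between the mutants it was 0.22 (0.06 to 0.38, adjusted p = 0.11), so neither passed the test.

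The other copy of that protein, L26A (AT3G49910), read 12.54, 12.45 and 12.52 in wild type, 12.51, 12.51 and 12.54 in cct-1, and 12.46, 12.44 and 12.41 in gct-2. Its cct-1 arrays lay inside the range of wild type, and the difference of 0.02 had a 95% interval from -0.13 to 0.16. L4, which reaches into the upper tunnel, was measured through L4A (AT3G09630) and L4D (AT5G02870). L4D read 12.34, 12.26 and 12.36 in wild type, 12.43, 12.60 and 12.51 in cct-1, and 12.45, 12.41 and 12.25 in gct-2. The cct-1 arrays lay above wild type by 0.19 without passing the test (0.01 to 0.38, adjusted p = 0.156), and gct-2 overlapped with both. L4A read 11.02, 10.91 and 11.04 in wild type, 11.03, 11.17 and 11.23 in cct-1, and 11.09, 11.06 and 10.93 in gct-2, all overlapping. The L17 genes, the remaining tunnel members, differed from wild type in cct-1 by 0.13 (L17A, AT1G27400) and -0.03 (L17B, AT1G67430), neither called.

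**Figure D2:**
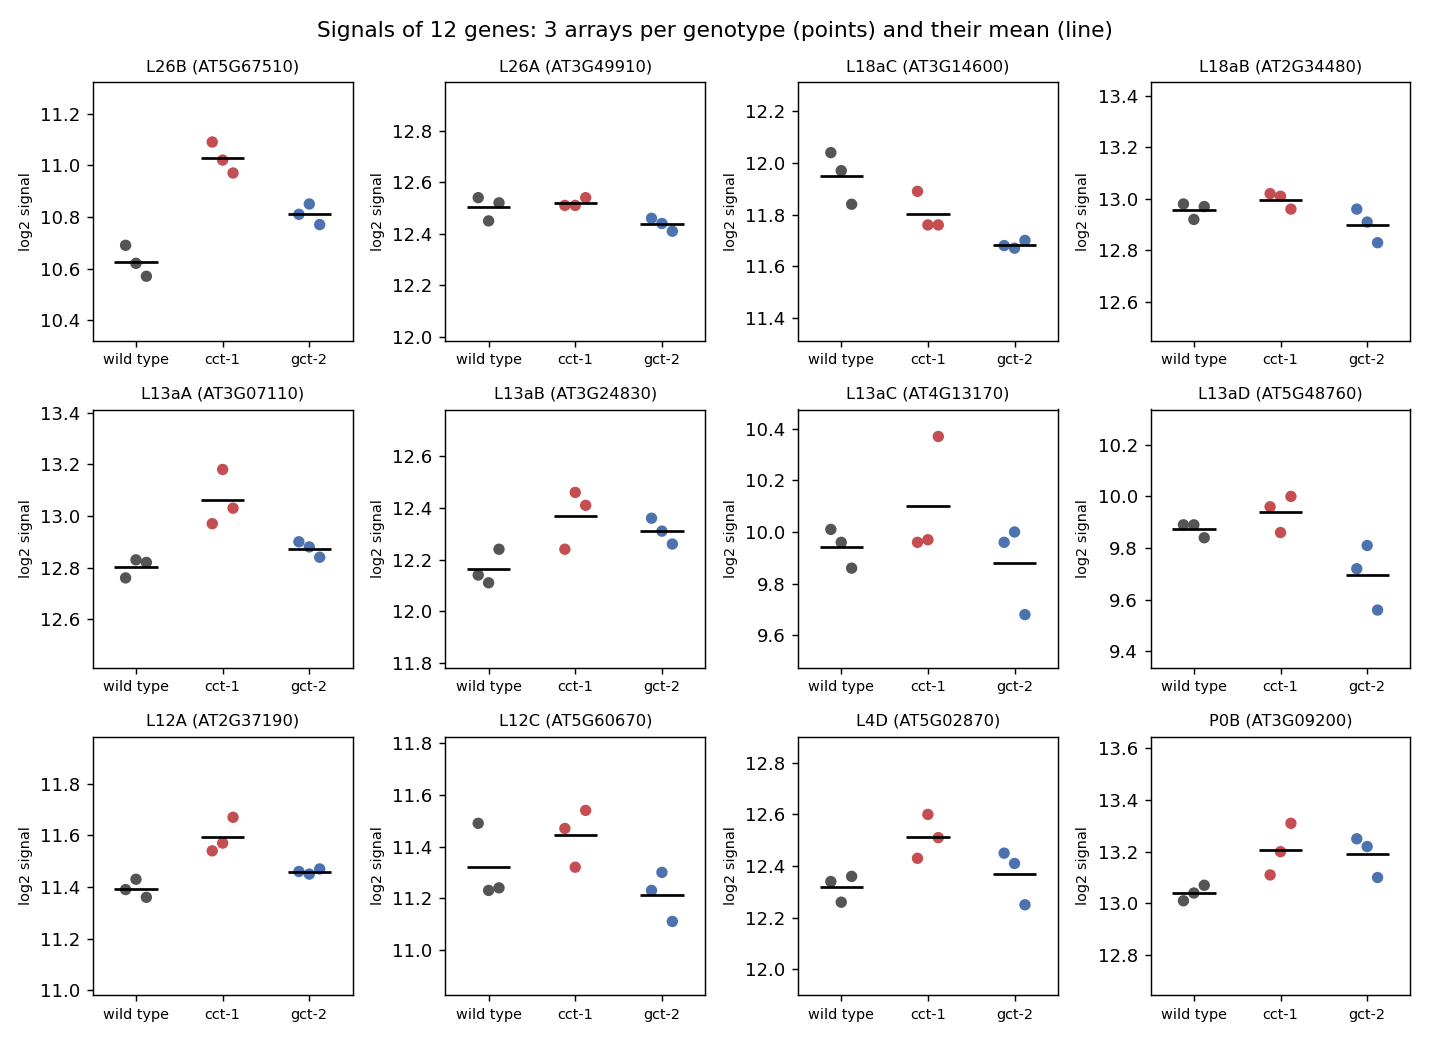
Signals in log2 units on each array (points, coloured by genotype) for 12 of the members given array by array, with the mean of the 3 arrays as a line; each panel has its own range on the vertical axis. The 3 genotypes separate fully for L26B, L12A and L13aA, and L18aC has its lowest values in gct-2.

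The stalk proteins were P0, the base of the stalk that recruits elongation factors, L12, which binds ribosomal RNA at that base, and L10a, the mobile stalk beside the exit site for transfer RNA. P0B (AT3G09200) read 13.01, 13.04 and 13.07 in wild type, 13.11, 13.20 and 13.31 in cct-1, and 13.25, 13.22 and 13.10 in gct-2. All 6 mutant arrays lay above the wild-type arrays, by 0.17 in cct-1 and 0.15 in gct-2, and neither passed the test (adjusted p = 0.193 and 0.225). L12A (AT2G37190) read 11.39, 11.43 and 11.36 in wild type, 11.54, 11.57 and 11.67 in cct-1, and 11.46, 11.45 and 11.47 in gct-2. Here too the genotypes were fully separated, in the same order as for L26B, with differences from wild type of 0.20 in cct-1 (0.05 to 0.35, adjusted p = 0.0873) and 0.07 in gct-2 (adjusted p = 0.539).

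L12B (AT3G53430) read 11.59, 11.62 and 11.65 in wild type, 11.66, 11.81 and 11.80 in cct-1, and 11.66, 11.66 and 11.59 in gct-2. L12C (AT5G60670) read 11.49, 11.23 and 11.24 in wild type, 11.47, 11.32 and 11.54 in cct-1, and 11.23, 11.30 and 11.11 in gct-2. The cct-1 arrays of L12B lay just above wild type, and those of L12C overlapped with it. PGY1 (L10aB, AT2G27530) read 12.75, 12.63 and 12.58 in wild type, 12.60, 12.52 and 12.66 in cct-1, and 12.54, 12.50 and 12.53 in gct-2. Its gct-2 arrays lay below all wild-type arrays, by -0.13 (-0.30 to 0.04, adjusted p = 0.265), and its cct-1 arrays overlapped with wild type. The other L10a copies differed from wild type by -0.05 and 0.08 in cct-1 and by -0.08 and -0.01 in gct-2, for L10aA (AT1G08360) and L10aC (AT5G22440) in turn.

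Among the 24 genes of the subunit's body the largest differences in cct-1 belonged to copies of L13a, a surface protein whose copies were all measured here. L13aA (AT3G07110) read 12.76, 12.83 and 12.82 in wild type, 12.97, 13.18 and 13.03 in cct-1, and 12.90, 12.88 and 12.84 in gct-2. The cct-1 arrays were the highest and gct-2 lay between. The cct-1 difference of 0.26 (SE 0.08) missed the threshold at adjusted p = 0.0547. It passed with a 60th percentile filter, array weights, quantile normalization, or an intensity trend and robust variance. In 7 of those 11 other settings and in all 9 fits without 1 array (limma adjusted p from 0.0574 to 0.161) it was not called. L13aB (AT3G24830) read 12.14, 12.11 and 12.24 in wild type, 12.24, 12.46 and 12.41 in cct-1, and 12.36, 12.31 and 12.26 in gct-2. The gct-2 arrays lay above wild type and cct-1 touched it, with differences of 0.15 and 0.20 (adjusted p = 0.258 and 0.138).

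The other copies of L13a had lower readings and moved less evenly. L13aC (AT4G13170) read 10.01, 9.96 and 9.86 in wild type, 9.96, 9.97 and 10.37 in cct-1, and 9.96, 10 and 9.68 in gct-2. Its high value in cct-1 replicate 3 and low value in gct-2 replicate 3 carried most of its spread. L13aD (AT5G48760) read 9.89, 9.89 and 9.84 in wild type, 9.96, 9.86 and 10 in cct-1, and 9.72, 9.81 and 9.56 in gct-2. Its gct-2 arrays were the lowest, at -0.18 from wild type (-0.37 to 0.01, adjusted p = 0.173).

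In gct-2 against wild type 1 member was called lower and none higher, while 15.3% of all probe sets tested were called, 7.48% higher and 7.77% lower. That gene was L18aC (AT3G14600), of a protein of the body. The differences ran from -0.27 to 0.18, with a median of -0.03 (-0.01 over all probe sets tested). Of the members 13 of 37 were above 0 (48.7% of all probe sets tested). The 95% interval lay within a factor of 1.5 of no change for all 37 members and within 1.2 for 24. All gct-2 arrays lay above wild type for 5 members (18.6% of all probe sets tested) and below for 6 (18.7%). At an unadjusted p under 0.05 there were 2 members, against 31.3% of all probe sets tested.

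L18aC read 12.04, 11.97 and 11.84 in wild type, 11.89, 11.76 and 11.76 in cct-1, and 11.68, 11.67 and 11.70 in gct-2. The gct-2 arrays were the lowest and nearly equal, and cct-1 overlapped with wild type. From 11.95 ± 0.10 in wild type to 11.68 ± 0.014 in gct-2 (SD, n = 3 each) it fell by 0.27 (SE 0.08, 0.832-fold, limma adjusted p = 0.0496). That call lay at the margin. It was kept without wild-type replicate 3 (adjusted p = 0.0387) and lost in the 8 fits that left out any other array, with an adjusted p of up to 0.138. The other copy, L18aB (AT2G34480), read 12.98, 12.92 and 12.97 in wild type, 13.02, 13.01 and 12.96 in cct-1, and 12.96, 12.91 and 12.83 in gct-2. All 3 genotypes of L18aB overlapped.

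**Figure D3:**
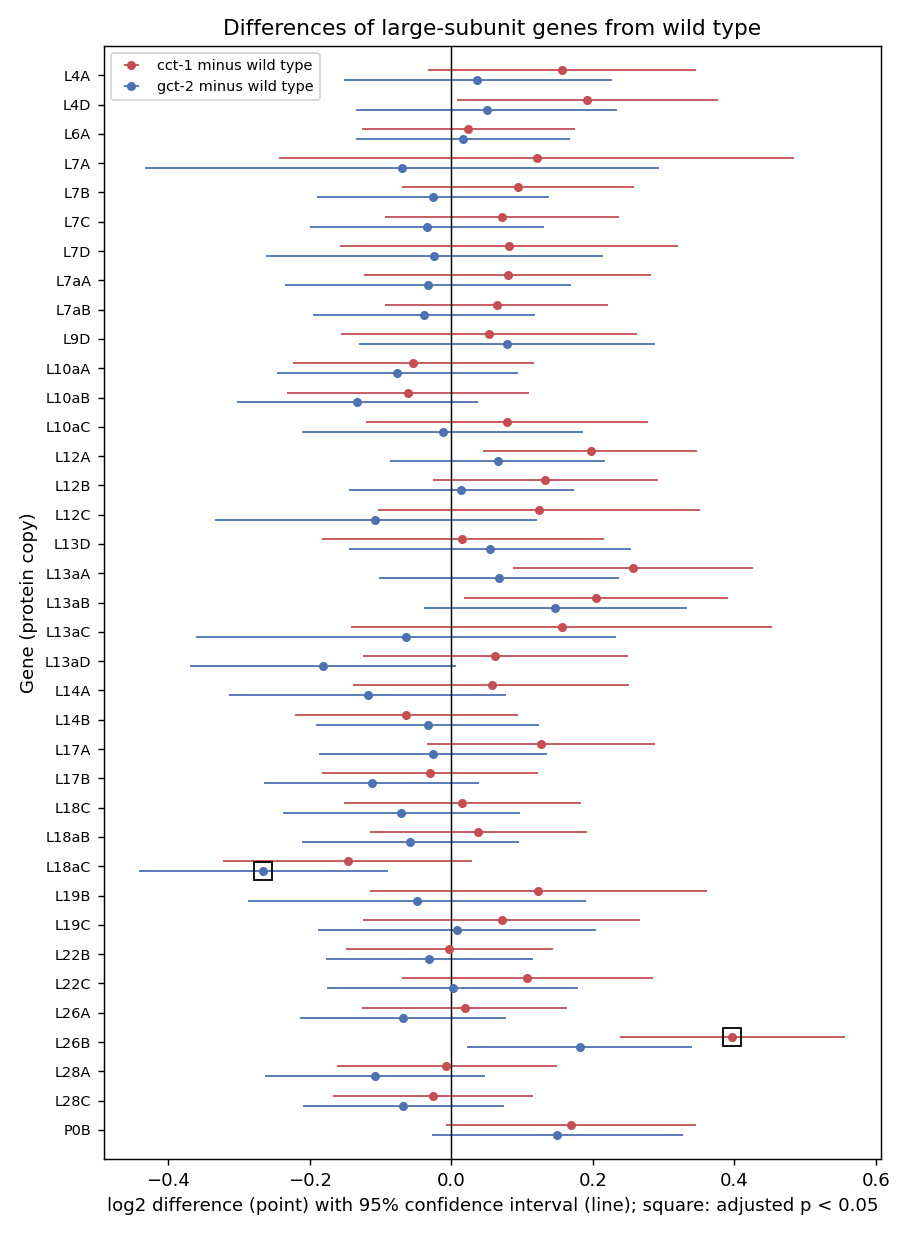
Difference of each mutant from wild type for the 37 members, in log2 units, with points for cct-1 and gct-2, lines for the 95% interval of the limma fit and a square at a called difference; the vertical line marks no difference. L26B in cct-1 and L18aC in gct-2 are the called members, and every interval lies between -0.44 and 0.56.

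Between the mutants, which had the same age, no member was called, while 6.39% of all probe sets tested were called by limma, 3.19% higher and 3.19% lower. At an unadjusted p under 0.05 there were 4 members (L12C, L13aA, L13aD and L26B), all higher in cct-1, against 22.8% of all probe sets tested. The differences were nonetheless mostly in 1 direction. Of the members 34 of 37 were higher in cct-1 than in gct-2 (53.4% of all probe sets tested), with a median of 0.11 (0.02 over all probe sets tested) and a range from -0.04 to 0.24. The 95% interval lay within a factor of 1.5 of no difference for all 37 and within 1.2 for 17. All 3 cct-1 arrays lay above all 3 gct-2 arrays for 13 members (14.2% of all probe sets tested) and below for none (12.8%). The exceptions in sign were L9D, L13D and L14B. The members share the same 6 arrays, so 34 genes are not 34 separate observations.

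By place in the subunit, all 6 tunnel genes, all 7 stalk genes and 21 of the 24 body genes were higher in cct-1 than in gct-2, with medians of 0.13, 0.09 and 0.10. The largest differences were those of L13aD at 0.24 (0.06 to 0.43, adjusted p = 0.122), L12C at 0.23 (0.00 to 0.46, adjusted p = 0.214), L13aC at 0.22 (-0.08 to 0.52, adjusted p = 0.361), L26B at 0.22, and L7A and L13aA at 0.19 each. That of L13aC was 0.084 without cct-1 replicate 3 and 0.118 without gct-2 replicate 3. L7A (AT1G80750), also of the body, read 10.40, 10.02 and 10.36 in wild type, 10.12, 10.43 and 10.60 in cct-1, and 10.44, 10.11 and 10.03 in gct-2. Its genotypes overlapped throughout, and its difference between the mutants ran from 0.08 without cct-1 replicate 3 and 0.107 without gct-2 replicate 3 to 0.312 without gct-2 replicate 1 and 0.323 without cct-1 replicate 1. P0B, with a difference of 0.02 (-0.16 to 0.20), was among the members nearest to 0, and its sign turned under median centring of the arrays (-0.001).

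The other copies of L7 were more even than L7A. L7B (AT2G01250) read 11.59, 11.53 and 11.58 in wild type, 11.66, 11.75 and 11.58 in cct-1, and 11.56, 11.58 and 11.48 in gct-2. L7C (AT2G44120) read 12.24, 12.24 and 12.23 in wild type, 12.20, 12.36 and 12.37 in cct-1, and 12.20, 12.24 and 12.17 in gct-2. L7D (AT3G13580) read 10.98, 11.06 and 11.20 in wild type, 11.13, 11.36 and 11 in cct-1, and 11.13, 10.99 and 11.06 in gct-2. The genotypes overlapped for all 3 copies, and between the mutants they differed by 0.12, 0.11 and 0.10 in that order, none called.

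Seen array by array, the median deviation of the members from their own means was 0.023, 0.056 and 0.11 in cct-1 and -0.013, -0.016 and -0.076 in gct-2, against -0.001, -0.035 and -0.009 in wild type. On the replicate 3 array of gct-2 only 2 of the 37 members lay above their own mean, and on that of cct-1 29 did. Without gct-2 replicate 3 the median difference between the mutants was 0.08, with 33 of 37 members above 0. Without cct-1 replicate 3 it was 0.09, also with 33. For gct-2 against wild type, leaving out gct-2 replicate 3 moved the median from -0.03 to 0.01 and the members above 0 from 13 to 19.

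Of the 3 tested markers of dividing cells 1 was called between the mutants, the DNA replication gene PRL. PRL read 9.40, 9.14 and 9.23 in wild type, 9.40, 9.54 and 9.14 in cct-1, and 8.97, 8.81 and 8.77 in gct-2. It was higher in cct-1 than in gct-2 by 0.51 (limma adjusted p = 0.0379). Array by array it did not follow the members in cct-1, where it was lowest on replicate 3 and the member median was highest there. In gct-2 both were lowest on replicate 3. The other tested markers of dividing cells, the Aurora kinase genes AUR2 and AUR1, differed between the mutants by 0.04 and 0.10, neither called. The part of dividing cells in the members' values was not tested.

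The other 19 members, which the choice of the largest differences leaves nearer to 0, ran from -0.06 to 0.13 in cct-1 and from -0.13 to 0.08 in gct-2. They are the copies of L10a and L17 and, in the body, those of L7a, L14, L19, L22 and L28 with the single measured copies of L6, L9, L13 and L18. Their lowest adjusted p was 0.276 for cct-1 against wild type, 0.265 for gct-2 against wild type and 0.244 for the mutants against each other. L28A (AT2G19730), the brightest reading of the group, was 13.54, 13.51 and 13.40 in wild type, 13.52, 13.45 and 13.46 in cct-1, and 13.37, 13.39 and 13.37 in gct-2. Its gct-2 arrays lay under the wild-type arrays by -0.11 (-0.26 to 0.05, adjusted p = 0.322). Over all members 13 were above wild type in both mutants, 8 below in both, and 16 above in cct-1 and below in gct-2. None was below in cct-1 and above in gct-2, and both comparisons share the wild-type arrays.

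Copies of 1 protein can be set against each other on the same array, which leaves out whatever an array does to all its probe sets alike. The difference between 2 probe sets is no measure of relative transcript amount, and only its shift between genotypes is described. Among 27 pairs of copies the arrays of cct-1 and wild type did not overlap for 3, those of gct-2 and wild type for 5, and those of the mutants for 4. Of single probe sets tested, 16.8% lay fully above and 15.6% fully below for cct-1 against wild type. For gct-2 against wild type these shares were 18.6% and 18.7%, and between the mutants 14.2% and 12.8%. No share was taken over other pairs of probe sets, so the counts are not read as a result about the copies. With 3 arrays against 3 the smallest exact p is 0.1, and these pairs were not tested. In 2 pairs the arrays of both mutants lay on the same side of wild type, with wild-type arrays shared.

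The pair L26A minus L26B was 1.84, 1.83 and 1.94 in wild type, 1.42, 1.49 and 1.57 in cct-1, and 1.65, 1.58 and 1.64 in gct-2. It was lower in both mutants, by -0.38 and -0.25 from wild type, and no genotypes overlapped. The pair L13aA minus L13aD was 2.86, 2.94 and 2.98 in wild type, 3.01, 3.31 and 3.04 in cct-1, and 3.18, 3.07 and 3.28 in gct-2. It was higher in both mutants, by 0.20 and 0.25, with the mutants overlapping. L18aB minus L18aC was 0.95, 0.95 and 1.14 in wild type and 1.28, 1.24 and 1.14 in gct-2, which touched to the printed digits but did not overlap. L17A minus L17B shifted by 0.16 in cct-1 without overlap and by 0.09 in gct-2 with overlap. Probe sets of such similar genes can share transcripts. None of the 37 had an identifier ending that marks shared probes, but probe sets annotated to several genes had been left out beforehand. Cross-hybridization was not tested.

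**Figure D4:**
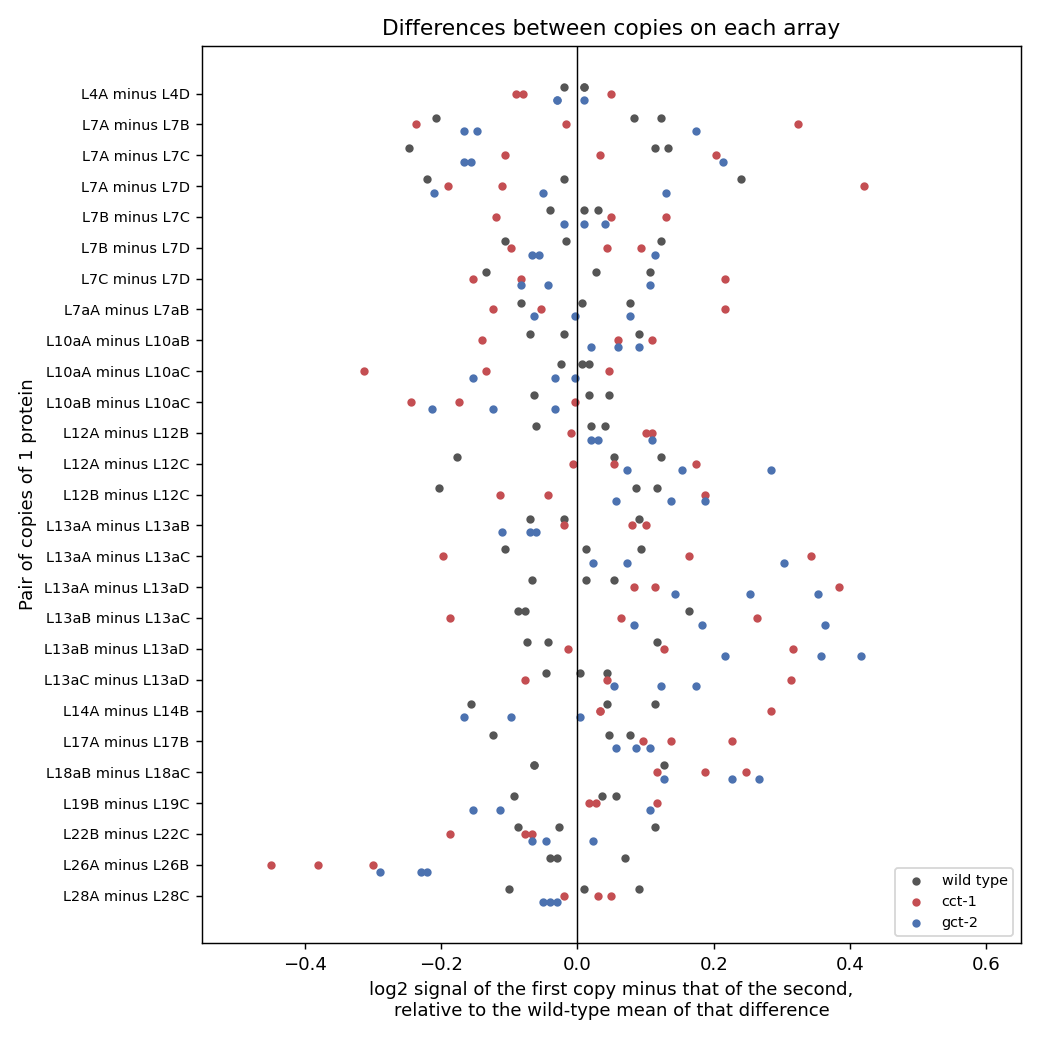
Log2 signal of the first copy minus that of the second on each array, for the 27 pairs of copies of 1 protein, relative to the wild-type mean of that difference. The points of L26A minus L26B lie left of wild type in both mutants, and those of L13aA minus L13aD lie right of it.

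The rest of the cytosolic ribosome was read from lists of the other genes. Of 77 further large-subunit loci 36 were tested. In cct-1 against wild type 4 of them were called higher and none lower, while 12.9% of all probe sets tested were called. The median was 0.11, and 30 of 36 were above 0 (52% of all probe sets tested). In gct-2 1 was called higher and 1 lower (15.3% of all probe sets tested were called), with a median of -0.04. Between the mutants 2 were called, both higher in cct-1, while 6.39% of all probe sets tested were called. The median was 0.16 and all 36 were above 0 (53.4% of all probe sets tested). Those called include the genes of L36A (AT2G37600), 1.44-fold higher in cct-1 (adjusted p = 0.0161), L37A (AT1G15250), 1.41-fold (adjusted p = 0.0272), and P3A (AT4G25890), a plant-specific stalk protein, 1.44-fold higher in cct-1 than in gct-2 (adjusted p = 0.0333). L35aC (AT1G74270) was the gene called lower in gct-2, by -0.26 (adjusted p = 0.0455). Without 1 array the counts called ran from 1 to 5 for cct-1, 0 to 2 for gct-2 and 0 to 1 for the mutants against each other.

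P0A (AT2G40010), another gene of the stalk base, read 6.38, 6.30 and 6.53 in wild type, 6.99, 7.02 and 7.37 in cct-1, and 6.50, 6.78 and 6.60 in gct-2. Its cct-1 arrays were the highest. All its wild-type and gct-2 values lay under the filter (median 6.86), so it entered the test only through cct-1, the genotype where it was high, and its calls against wild type and against gct-2 follow in part from that filter. L27A (AT2G32220) read 6.62, 6.75 and 6.78 in wild type, all under the filter, 7.68, 7.28 and 7.23 in cct-1, and 7.36, 7.28 and 7.11 in gct-2, and entered through the mutants alone. Without P0A and L27A the further large-subunit genes called were L36A and L37A in cct-1, L35aC in gct-2 and P3A between the mutants. P0B, the bright member of that family, was 0.17 and 0.15 above wild type and not called. P0C (AT3G11250) differed by 0.10 and -0.10, not called.

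Of 89 small-subunit (40S) loci 38 were tested. In cct-1 36 of the 38 were above wild type (52% of all probe sets tested), with a median of 0.13, and 1 was called (12.9% of all probe sets tested). The called gene was S2D (AT3G57490), 1.45-fold higher (adjusted p = 0.0493). In gct-2 none was called by limma (15.3% of all probe sets tested), with 4 at an unadjusted p under 0.05 (31.3%), and the median was -0.05. Between the mutants 2 were called, S13A (AT3G60770) and S4D (AT5G58420), higher in cct-1 by 0.38 and 0.32 (adjusted p = 0.0435 and 0.0347). Over all probe sets tested 6.39% were called. All 38 were above 0 (53.4% of all probe sets tested), with a median of 0.15. Without 1 array the counts called ran from 0 to 1 in cct-1 and from 0 to 2 between the mutants. The members had the smallest median of the 3 cytosolic lists between the mutants, a difference between lists that was not tested.

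**Figure D5:**
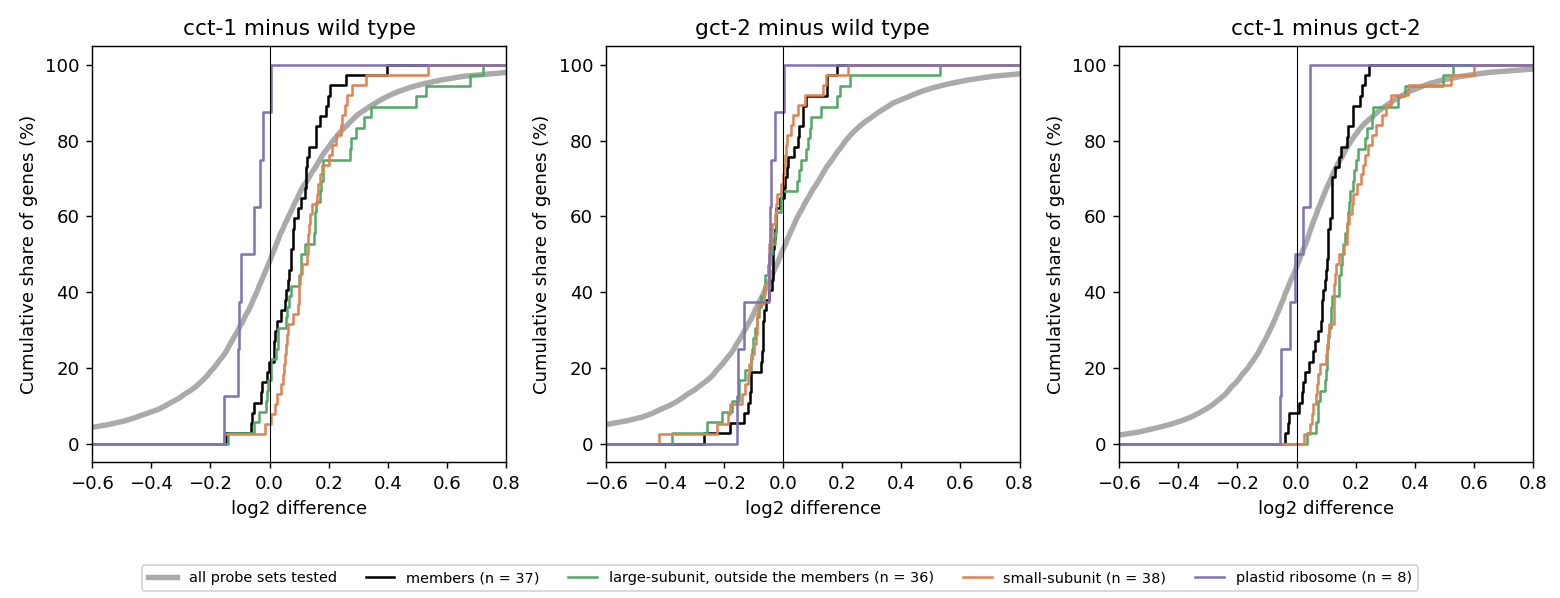
Cumulative share of genes (percent) by log2 difference, in 1 panel per comparison, for the members, the other large-subunit genes, the small-subunit genes, the plastid ribosomal protein genes and all probe sets tested; the axis is drawn from -0.6 to 0.8. Between the mutants every gene of the other cytosolic lists and 34 of the 37 members lie right of 0, and the member curve is the steepest of these.

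The genes of plastid ribosomal proteins that the nucleus encodes gave a comparison outside the cytosol. All 8 tested were bright, from 10.76 to 12.99. In each mutant 7 of 8 lay below wild type, with medians of -0.08 in cct-1 and -0.04 in gct-2. Of all probe sets tested 52% lay above wild type in cct-1 and 48.7% in gct-2. Between the mutants 4 of 8 were above 0 (53.4% of all probe sets tested) and the median was 0.01. None was called by limma in any comparison, and none reached an unadjusted p under 0.05.

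Of 32 ribosome biogenesis loci 7 were tested, and none was called in any comparison. At an unadjusted p under 0.05 there were 2 in cct-1, 1 in gct-2 and, for the mutants compared directly, 2. At that unadjusted threshold the shares over all probe sets tested were 28.9%, 31.3% and 22.8%. The gene in gct-2, YAO (AT4G05410), read 6.83, 6.78 and 6.79 in wild type, all under the filter, and entered the test through the mutants alone. The median was 0.23 in cct-1 and -0.03 in gct-2, and was 0.24 for cct-1 against gct-2. Of 37 loci of translation factors and ribosome-associated proteins 3 were tested and none was called, beside the same called shares over all probe sets. At an unadjusted p under 0.05 there were 2, 0 and 1 of these genes, beside 28.9%, 31.3% and 22.8% of all probe sets tested. The helicase gene EIF4A-2 (AT1G54270) was among them, at 0.24 in cct-1 (adjusted p = 0.152). Of 8 loci of the TOR pathway, which sets ribosome production to nutrient supply, and of other regulators of ribosomal protein genes, 1 had a named probe set. It lay under the filter.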

How the data were processed

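RNA of above-ground seedling parts was measured on 9 Affymetrix arrays, 3 per genotype. Values are log2 expression values per probe set as deposited by the authors. GCRMA and MAS5 are named, without role or version, per the submitters' processing notes; the steps each performed, and how the 16863 probe sets were chosen, are not given in the sources used here.

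Tests used limma 3.58.1 in R 4.3.3. Control probe sets (37) were left out and 10395 probe sets were tested, those whose signal exceeded the 40th percentile of the array on 3 arrays or more. Genotype means were estimated jointly from the 9 arrays (lmFit, eBayes), p-values were adjusted by Benjamini-Hochberg over all 10395, and the threshold was 0.05. Intervals are 95% intervals of that fit, and the factors of 1.5 and 1.2 they are read against were chosen after the data were seen. The fit was tested on simulated data. The number of arrays limits the precision; the median standard error was 0.0756 for members and 0.111 over all probe sets tested.

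Replicate numbers did not pair the arrays: 0 of 9 same-numbered pairs had residuals correlated above 0.1. Their correlations ran from -0.268 to 0.088, and those of differently numbered pairs from -0.117 to 0.248. Whether arrays were grouped in another way was not tested. Loci came from the platform annotation and a RefSeq table of TAIR10.1, and no coordinates or sequences were used. Members and gene lists were chosen with earlier results of these data known. Array values are given for members called in any comparison, the 5 largest differences in each comparison, P0B and the other copies of their proteins; PGY1 and L28A were added after their values were seen. From each other list all called genes were named, which for the further large-subunit genes went beyond the planned limit of 4. Alternatives were other filters, normalizations, variance models, array weights, a replicate block, fits of only the groups compared, a 0.01 threshold, and each array left out.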

Additional observations from a re-analysis of the deposited data

How the results depend on the processing

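The call of L26B in cct-1 held under every alternative that was run, with an adjusted p from 0.0121 to 0.0356 when 1 array was left out and from 0.00201 to 0.0261 otherwise. The count of members called in cct-1 was 2 with a 60th percentile filter, with array weights and with quantile normalization, 5 with an intensity trend and robust variance (L12A, L13aA, L13aB, L26B and P0B), and 1 in every fit without 1 array. In gct-2 the single call, L18aC, gave a count of 0 with the 2 groups alone, a threshold of 0.01, no filter, quantile normalization or the replicate block, and 0 to 1 without 1 array. Between the mutants the count was 1 (L13aA) with the trend and robust variance, which called 804 of all 10395 probe sets, and 0 without 1 array. The medians over members moved from those of the main fit by less than the SD between arrays of the member median (0.0477). Without 1 array they ran from 0.035 to 0.099 in cct-1, -0.059 to 0.006 in gct-2 and 0.082 to 0.125 between the mutants. The gct-2 median changed sign within that range. P0B turned sign between the mutants, to -0.001 with median centring, -0.033 without cct-1 replicate 3 and -0.025 without gct-2 replicate 3, within a range of -0.033 to 0.067 when 1 array was left out; the cause was not tested. The replicate block changed no other call of a member.

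The other lists were run under the same alternatives, a choice made after seeing the data. The counts over all probe sets in each setting are given in the last paragraph, as background to these. With the trend and robust variance the small-subunit counts were 8 (cct-1), 4 (gct-2) and 10 (mutants compared), the further large-subunit counts 8, 4 and 4, and 1 plastid gene was called in cct-1. With array weights the small-subunit counts were 6, 3 and 5, the large-subunit count in gct-2 was 4, and 1 biogenesis gene (YAO) was called in gct-2. YAO entered the test through the mutants alone, where it was high, so its call follows in part from the filter. With a threshold of 0.01 the small-subunit counts fell to 0, and the large-subunit counts were 2, 0 and 0. Those 2 in cct-1 were P0A and L27A, which passed the filter only through genotypes where they were high, and L36A and L37A were not called at 0.01. Small-subunit counts in cct-1 were 3 with a 60th percentile filter or quantile normalization and 0 with median centring or the replicate block; in gct-2 the count was 1 with no filter. Between the mutants the small-subunit count was 3 with a 60th percentile filter, and 3 without identifiers ending in _s_at or _x_at. It was 0 with the 2 groups alone, no filter or the replicate block. The large-subunit count between the mutants was 1 with the 2 groups alone, median centring, no filter, quantile normalization or the replicate block, and in gct-2 it was 1 with the 2 groups alone, no filter or quantile normalization. Without 1 array the small-subunit counts ran from 0 to 1 in cct-1 and 0 to 2 between the mutants, with 0 throughout in gct-2, and the large-subunit counts from 1 to 5, 0 to 2 and 0 to 1 in cct-1, gct-2 and between the mutants; the biogenesis count in gct-2 ran from 0 to 1.

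Over all probe sets tested the counts called without 1 array ran from 590 to 1310 in cct-1, 805 to 1646 in gct-2 and 151 to 647 between the mutants. Of the 10395 tested, the trend and robust variance called 1574, 1799 and 804 in that order. Array weights called 1784, 2682 and 1023, and the threshold of 0.01 left 502, 623 and 123. Quantile normalization called 1375, 1584 and 682, and median centring 1311, 1565 and 658. The 2 groups alone gave 967, 1484 and 389, and the replicate block 979, 1272 and 358. With a 60th percentile filter 1031, 1096 and 481 of 7062 were called, and with no filter 1976, 2640 and 772 of 16826. Without identifiers ending in _s_at or _x_at the counts were 1295, 1561 and 657 of 10012.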
